A study of Mus musculus with 2 samples.

Results

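Redrum, Tlcd4, Btnl10, Sh2d4a, Hesx1 and Prelid3a were 6 of the 19869 genes or lincRNA intervals measured when the long noncoding RNA ESlncRNA was over-expressed in fetal liver erythroid progenitors. They were selected on their ratios of ESlncRNA over vector, which were among the highest on these same arrays, so their ratios are given here as a description, with no test. The selection used gene names in the array files, where Redrum is written 9430076G02Rik, Tlcd4 Tmem56, Btnl10 Butr1 and Prelid3a Slmo1. It found 7 probes of 55681, a pair for Prelid3a and 1 for each of the others.

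The study used 2 two-colour arrays, labelled rep1 and rep2 and called array 1 and array 2 here. Each compared total RNA from C57BL/6 cells of stage E14.5, taken from fetal liver as Lin- erythroid progenitors, transduced and then sorted for GFP. The cells carried either ESlncRNA, whose RNA was labelled with Cy5, or the vector, whose RNA was labelled with Cy3. ESlncRNA is also known as lincRNA-EPS. The dyes were not swapped, so a dye effect of a probe cannot be told apart from an effect of ESlncRNA. Whether the replicates were separate cultures or animals is not said in the labels, so the p-values below cover the difference between 2 arrays only, and that difference may be technical.

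Erythroid progenitors divide a few more times in the fetal liver, fill with haemoglobin and lose their nuclei, and long noncoding RNAs are among the transcripts that they switch on. The 6 genes do unlike things. Redrum is an erythroid long noncoding RNA, and Tlcd4 encodes a membrane protein with a TLC domain, the fold shared by ceramide synthases. Btnl10 belongs to the butyrophilins, immunoglobulin-like surface proteins related to the blood group protein Ermap. Sh2d4a carries an SH2 domain, which binds phosphorylated tyrosines. Hesx1 is a homeobox repressor known from the early forebrain and pituitary, and Prelid3a belongs to the PRELI family, which carries phospholipids between the mitochondrial membranes.

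The start of each probe below shows what the array bound for 4 of the genes. These are the first 30 bases of probes 60 bases long, written 5′ to 3′ as the array files list them, with mm9 positions from the array files: Tlcd4 at chr3:120905270-120905299 (reverse strand), Btnl10 at chr11:58740346-58740375, Sh2d4a at chr8:70871188-70871217 and Hesx1 at chr14:27815304-27815333 (all forward strand).
Tlcd4: tcagtgttactaaggtatatcagtaattaa
Btnl10: gtacagtcacatggcagcatcatcaaaagt
Sh2d4a: gagaaagacccaagtgtaaattgaaagaca
Hesx1: catgttggcttctcttccagttgtatagta
The 4 stretches differ, and the whole probes had a G and C content between 35% (Tlcd4) and 41.7% (Btnl10). The longest run that a whole probe shared with a probe of any other name was 15 bases for Tlcd4, Btnl10 and Sh2d4a and 13 bases for Hesx1. The Tlcd4 and Sh2d4a probes held a stop codon in all 3 forward frames, the Btnl10 probe in 2 and the Hesx1 probe in 1.

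The array file held 1 more probe whose description names butyrophilin related 1, the older name of Btnl10. It is listed only under the transcript ENSMUST00000069941, so the name search did not select it. It lies 0.716 kb from the Btnl10 probe on the same strand, and its last 30 bases (chr11:58739660-58739689, mm9) are printed because they show what sets it apart.
ENSMUST00000069941: cacacacacacacacacacacacacacaca
Its last bases form an unbroken repeat of c and a, 31 bases long, whereas the longest such run in the Btnl10 probe was 4 bases. A repeat of this kind of at least 20 bases, on either strand, occurred in 76 of the array's 55681 probes.

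Upstream sequence was available for 3 of the genes, from RefSeq on GRCm38.p6, and is shown because the genes were higher together. The 250 bases before the most upstream start were searched on both strands for the GATA motifs AGATAA and TGATAA, the KLF motif CCNCNCCC, the E-box CAGNTG and the TATA box TATAAA. Capitals mark GATA and KLF matches. The windows are chr3:121263341-121263590 (Tlcd4, reverse strand), chr11:58917658-58917907 (Btnl10, forward strand) and chr14:27000112-27000361 (Hesx1, forward strand).
Tlcd4: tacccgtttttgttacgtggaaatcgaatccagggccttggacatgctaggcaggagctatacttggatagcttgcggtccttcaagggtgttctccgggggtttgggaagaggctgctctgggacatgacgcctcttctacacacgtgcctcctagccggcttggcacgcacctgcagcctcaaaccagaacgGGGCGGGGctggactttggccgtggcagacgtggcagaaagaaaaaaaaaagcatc
Btnl10: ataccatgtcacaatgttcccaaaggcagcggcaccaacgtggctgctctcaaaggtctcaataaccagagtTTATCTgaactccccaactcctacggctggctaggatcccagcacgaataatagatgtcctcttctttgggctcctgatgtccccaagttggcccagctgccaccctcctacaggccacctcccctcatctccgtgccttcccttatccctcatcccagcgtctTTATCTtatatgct
Hesx1: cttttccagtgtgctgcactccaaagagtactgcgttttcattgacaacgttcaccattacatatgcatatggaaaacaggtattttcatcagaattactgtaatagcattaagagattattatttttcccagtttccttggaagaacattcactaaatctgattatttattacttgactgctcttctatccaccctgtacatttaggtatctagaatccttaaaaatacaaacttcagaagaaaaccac
The Btnl10 window held 2 matches to AGATAA, both on the reverse strand, 178 to 173 and 14 to 9 bases before the start. Among all 32817 RefSeq windows of this length, 9.99% held AGATAA, 7.95% held TGATAA and 2.72% held at least 2 GATA matches. The Tlcd4 window held 1 KLF match, 56 to 49 bases before the start, as 45.9% of all windows held at least 1. Tlcd4 and Btnl10 each held 1 E-box, found in 44.8% of windows, and none of the 3 held a TATA box, found in 12.4%. No match overlapped another motif in these 3 windows. Hesx1, with 34% G and C against 56% for Tlcd4 and 52.8% for Btnl10, held none of the motifs. The 3 windows thus shared no GATA or KLF match, and a match in letters is not a binding site.

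The arrays were alike in depth. The median spot signal was 35.9 and 39.5 for the vector and 67.8 and 76.3 for ESlncRNA, and 44.4% to 52.1% of spots were well above background, as the scanner software calls it. Ratios are given on the log2 scale after correction of the background with normexp and loess normalization. The median gene stood at -0.03, and the ratios of a gene on the 2 arrays differed by a median of 0.0726 and, at the 90th percentile, by 0.203. In limma, at an adjusted p under 0.05, 26.3% of the genes were higher and 36.8% lower, 63.1% in all, so that a call alone says little about any gene. Being at least 2-fold higher on both arrays was rarer, at 0.604% of the genes, and at least 3-fold higher on both arrays rarer still, at 0.0705%. By the probe that stood for each gene all 6 met both of these sizes, which follows from their selection. The second Prelid3a probe did not reach 3-fold (2.91 and 2.67), and the repeat-bearing probe described as Btnl10 was at -0.20. ESlncRNA was taken as the lincRNA interval on chromosome 4 that starts at 109071198 (mm9), between probes of Eps15 and Ttc39a. Its brightest probe was at 2.21 ± 0.024 (SD, n = 2 arrays), 4.62-fold higher as measured, with a vector signal that was not well above background. The probes of this interval and of its shorter form, which has the same start, did not give 1 value. Of the 9 kept, 8 were higher by bounds, the lowest at least 1.52-fold, and the one well above background with vector on both arrays was at 0.05.

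Sh2d4a had the highest ratio of the 6. Its probe (NM_028182, chr8:70871188-70871247) gave spot signals of 80.0 and 97.3 with vector and 730 and 968 with ESlncRNA, over local backgrounds of 19 and 18 and of 44 and 53. Both raw ESlncRNA signals lay above both vector signals. The median Cy5 spot was also the brighter, at 67.8 and 76.3 against 35.9 and 39.5, so this order alone shows no rise. After normalization the arrays gave almost 1 value. The log2 ratios were 2.107 and 2.112, a mean of 2.11 ± 0.0036 (SD, n = 2 arrays) or 4.32-fold. The SD of 2 values this close is itself poorly known, and the gap between the arrays, 0.00504, was below that of the median gene.

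Redrum came next in ratio. Its signal was 1222 and 1194 with vector and 8892 and 10876 with ESlncRNA. The vector channel already stood 67.9 and 70.2 times above its local background, so Redrum was well measured without ESlncRNA too. The log2 ratios were 1.998 and 2.065, a mean of 2.03 ± 0.047 (SD, n = 2 arrays) or 4.09-fold. The probe (AK036466, chr18:54612426-54612485, forward strand) was the only one with this name.

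Tlcd4 followed. Its probe (NM_178936, chr3:120905240-120905299, reverse strand) gave 712 and 678 with vector and 4773 and 5864 with ESlncRNA. The signal was far above the local backgrounds of 19 and 16 in the vector channel. The log2 ratios of 1.91 and 2.02 had a mean of 1.96 ± 0.079 (SD, n = 2 arrays) or 3.90-fold.

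Btnl10 differed most between the arrays, by 0.150, and array 2 was the lower. Its probe (NM_138678, chr11:58740346-58740405) gave 109 and 99.3 with vector and 863 and 804 with ESlncRNA. The log2 ratios of 1.97 and 1.82 had a mean of 1.89 ± 0.11 (SD, n = 2 arrays) or 3.72-fold. The repeat-bearing probe described as the same gene behaved otherwise. Its signal was 1266 and 1319 with vector and 1879 and 2379 with ESlncRNA, and its log2 ratios were -0.21 and -0.19. Its mean of -0.20 ± 0.015 was called lower in limma (adjusted p = 0.0116), and with median centring in place of loess it was 0.31. The call was lost with the processed signals (limma adjusted p = 0.185) and without the replicate block (0.122). So 2 probes described as Btnl10 disagreed in direction with loess, and which of them reports the transcript was not tested.

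Hesx1 had a vector signal close to its background. Its probe (NM_010420, chr14:27815304-27815363) gave 60.1 and 58.1 with vector, over backgrounds of 19.5 and 18, and 477 and 524 with ESlncRNA. The vector signal was thus 3.08 and 3.23 times its background, which the scanner software still called well above background. The log2 ratios of 1.83 and 1.87 had a mean of 1.85 ± 0.027 (SD, n = 2 arrays) or 3.60-fold.

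Prelid3a was the lowest of the 6 and had a pair of probes, 813 bases apart by their starts and both for NM_144867. The brighter, at chr18:67640176-67640235, gave 181 and 190 with vector and 1196 and 1320 with ESlncRNA. Its log2 ratios were 1.84 and 1.72, a mean of 1.78 ± 0.084 (SD, n = 2 arrays) or 3.44-fold. The other, at chr18:67639363-67639422, gave 119 and 127 with vector and 662 and 727 with ESlncRNA. Its log2 ratios were 1.54 and 1.42, a mean of 1.48 ± 0.088 or 2.79-fold. The pair had 1 direction, and both ratios of the second probe lay below both of the first.

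**Figure D1:**
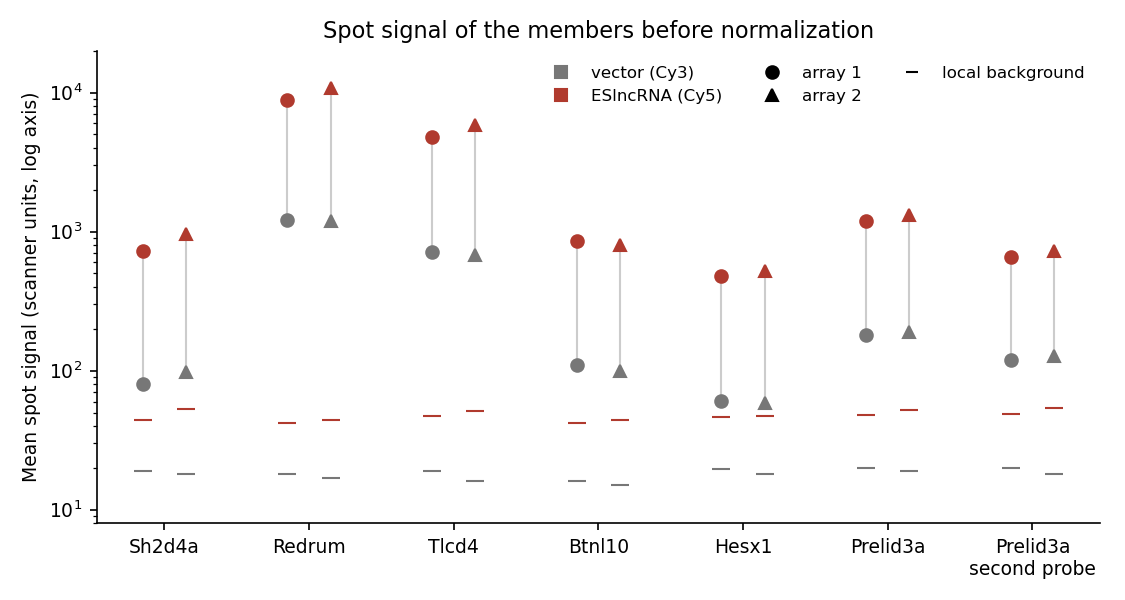
Mean spot signal in scanner units (log axis) of the 7 probes before normalization, for vector (grey) and ESlncRNA (red) on array 1 (circles) and array 2 (triangles), with short bars at the local background of each channel. For every probe both ESlncRNA signals lie above both vector signals. The median Cy5 spot was also brighter than the median Cy3 spot, so this order alone shows no rise. The vector signal of Hesx1, at 60.1 and 58.1, lies closest to its background.

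The order of the genes was only partly resolved. The array values of Sh2d4a lay above those of Redrum, but those of Redrum and Tlcd4, Tlcd4 and Btnl10, Btnl10 and Hesx1, and Hesx1 and Prelid3a overlapped. Among all 19869 genes Sh2d4a stood 4th from the highest, Redrum 5th, Tlcd4 6th, Btnl10 8th, Hesx1 9th and Prelid3a 11th. Above them came Aldh1a7, an aldehyde dehydrogenase (2.32), Scd1, a fatty acid desaturase (2.29), and the ESlncRNA interval. Trib3, a stress-induced pseudokinase (1.91), and St3gal6, a sialyltransferase (1.78), lay between them. The genes next below were Pdia2, a disulfide isomerase (1.77 ± 0.12), and Aqp3, a water and glycerol channel (1.72 ± 0.060). Prelid3a, at 1.78, therefore lay within the spread between arrays of Pdia2.

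Likeness of pattern was measured as the distance between the pairs of log2 ratios on the 2 arrays, which with 2 arrays mostly restates the size of the ratio, and was taken only to genes other than the 6. Among these, Trib3 lay nearest to Redrum (distance 0.201) and Tlcd4 (0.103), and the ESlncRNA interval lay second nearest to Redrum (0.258). St3gal6 lay nearest to Hesx1 (0.0927) and Btnl10 (0.226), and second nearest to Tlcd4 (0.255) and Prelid3a (0.142). Aqp3 lay nearest to Prelid3a (0.0881) and second nearest to Btnl10 (0.247), and Trib3 second nearest to Hesx1 (0.142). The ESlncRNA interval lay nearest to Sh2d4a (0.140), followed by Scd1 (0.264).

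**Figure D2:**
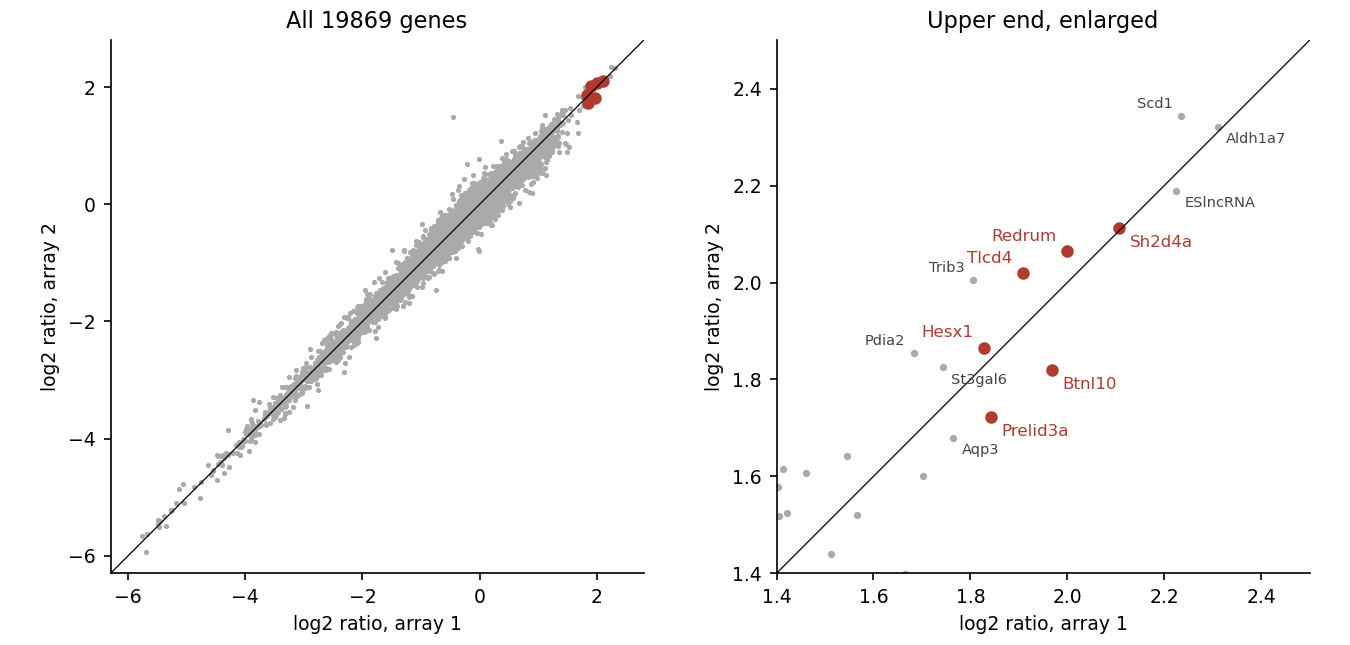
Log2 ratio of ESlncRNA over vector on array 1 against array 2 for all 19869 genes (left) and for the upper end (right), each point a gene, the 6 genes in red and the line marking equal ratios. Sh2d4a lies on the line (2.107 and 2.112), Redrum, Tlcd4 and Hesx1 were higher on array 2, and Btnl10 and Prelid3a were higher on array 1.

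The size of the ratio depended on how the background and the dyes were treated, and different genes moved with each. Under other background treatments Hesx1 and Sh2d4a, whose vector signals lay nearest to their background, moved most, and under median centring Redrum and Tlcd4 did. Before normalization, the background-subtracted signal with ESlncRNA was 11.2 and 11.5 times that with vector for Sh2d4a, and 10.6 and 11.9 times for Hesx1. It was 7.35 and 9.21 times for Redrum and 6.82 and 8.79 times for Tlcd4. Loess took off 0.58 and 0.82 on the log2 scale for Sh2d4a and 0.83 and 1.09 for Redrum, against a median step of 0.617 and 0.844 over the genes. The offset of 50 added in normexp further lowers the ratio of dim spots.

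With Agilent's processed signals in place of normexp and loess, Hesx1 was at 3.17 and Sh2d4a at 3.11, a gain of over 1 for each. Redrum then stood at 2.23, Tlcd4 at 2.20, Btnl10 at 2.67 and Prelid3a at 2.27. Among the same 19869 genes Hesx1 was then 134th from the highest and Tlcd4 240th. With a normexp offset of 0 the 6 genes lay between 2.0003 (Prelid3a) and 2.63 (Sh2d4a), and their places ran from 34th (Sh2d4a) to 110th (Prelid3a). In the authors' deposited table the values were 2.37 for Sh2d4a, 2.20 for Hesx1, 2.12 for Btnl10, 2.04 for Redrum, 1.985 for Tlcd4 and 1.875 for Prelid3a. With median centring in place of loess the whole distribution moved up, to a median of 0.34, and Redrum led at 2.61, with Tlcd4 at 2.49. Each of the 6 was higher with ESlncRNA under each of these treatments, which their selection on these same arrays makes likely. The lowest mean of any alternative was the 3.10-fold of Prelid3a with its probes averaged. Which of them led changed with the treatment.

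**Figure D3:**
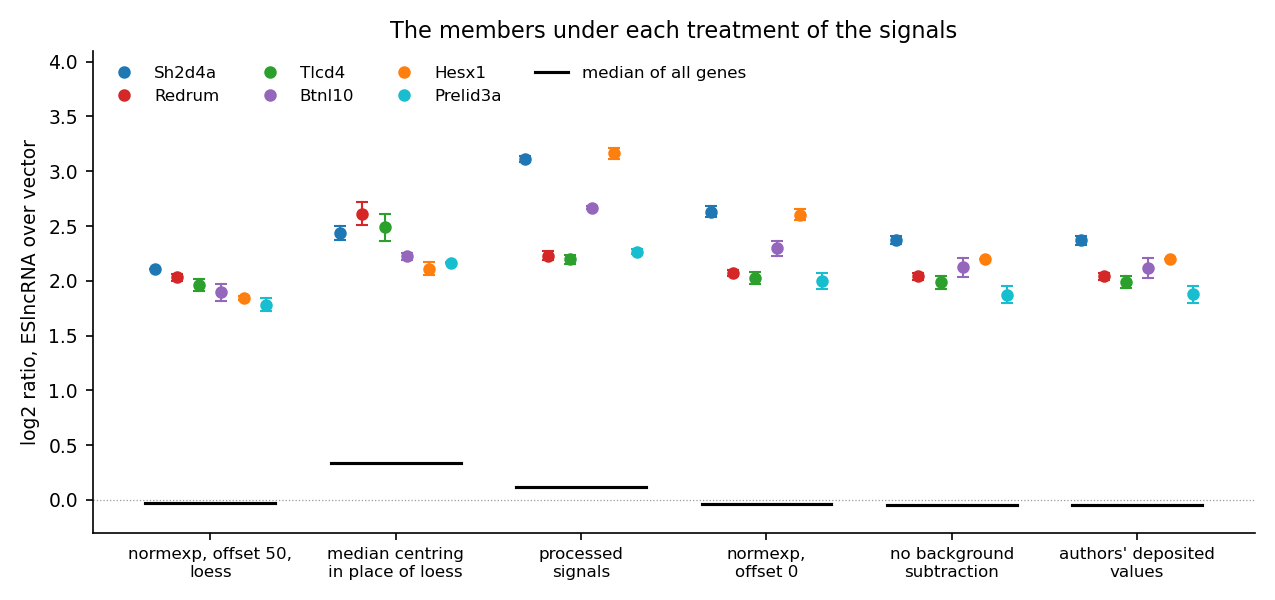
Log2 ratio of ESlncRNA over vector for the 6 genes under 6 treatments of the signals, with points at the mean of 2 arrays, ends of each line at the values of the arrays, and black bars at the median of all genes. Hesx1 and Sh2d4a range from 1.85 and 2.11 with normexp (offset 50) and loess to 3.17 and 3.11 with the processed signals, while Redrum stays between 2.03 and 2.61.

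Relatives of the 6 genes were not used to select them and were tested in limma over all genes. Of 89 relatives tested in 6 lists, 23 were higher (25.8%), 39 lower (43.8%) and 27 did not pass, against 26.3% higher and 36.8% lower over all genes. The counts of each list below are to be read beside these shares of all genes. With loess 0 of them reached a 2-fold rise on both arrays, but as only 0.604% of all genes did, 0 of 89 says little. With median centring 55 were higher and 23 lower, so the balance rests on the normalization. That limma fit gave far smaller p-values for large ratios (Sh2d5, limma adjusted p = 2.11e-216 against 7.41e-08 with loess). Counts with median centring, here and below, were therefore not made at equal strictness.

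Among the butyrophilins, 11 were on the array and 4 were measured above background. Ermap, the erythroid membrane protein of the Scianna blood group, rose to 0.91 and 0.98 on the 2 arrays (mean 0.94 ± 0.047, limma adjusted p = 1.03e-05). With its probes averaged Ermap was at 0.65, and it is counted among the erythroid markers below as well. Btn1a1, the butyrophilin of milk fat, rose by 0.42 ± 0.11 (limma adjusted p = 0.000892). Btnl9 fell, to -1.76 and -1.90, and as its ESlncRNA channel was not well above background it was at least 3.22-fold lower (limma adjusted p = 7.85e-07). Mog did not pass. The family median was 0.20 against -0.03 over all genes, and 7 members, among them Btnl1, Btnl2 and Btnl4, were not measured above background.

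In the TLC domain family, 4 of 11 rose and 5 fell, with a median of -0.12. Tlcd2 and Tlcd1, the nearest relatives of Tlcd4 by name, rose by 0.48 ± 0.042 (limma adjusted p = 0.000242) and 0.43 ± 0.076 (limma adjusted p = 0.000584). The ceramide synthases Cers4 and Cers5 fell, to -1.97 ± 0.052 (limma adjusted p = 3.83e-07) and -1.58 ± 0.062 (limma adjusted p = 1.05e-06). Cers6 was at least 1.43-fold lower (limma adjusted p = 6.38e-05). The rises of Tlcd1 and Tlcd2 were thus small beside the 1.96 of Tlcd4, which was selected for its ratio.

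Of 27 SH2 adaptors measured, 3 rose and 16 fell, with a median of -0.31. The strongest falls were those of Sh2d5 (-3.13 ± 0.029, limma adjusted p = 7.41e-08), Sh2d3c (-3.06 ± 0.14, limma adjusted p = 1.62e-07) and Grap, a Grb2-like adaptor of leukocytes (-2.07 ± 0.11, limma adjusted p = 5.46e-07). Sh2d4b, the closest relative of Sh2d4a, was on the array but too dim to be kept. Sh2d4a itself was at 2.11. With median centring 12 rose and 12 fell.

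Hesx1 works with corepressors of the Groucho family. Of its 24 relatives and partners on the array 9 were measured, of which 1 rose and 4 fell (median -0.04). Tle1, a Groucho corepressor that Hesx1 is known to recruit, rose by 0.35 ± 0.012 (limma adjusted p = 0.000935). Tle3 fell to -0.98 ± 0.072 (limma adjusted p = 1.06e-05). Tle2 was 1.81-fold lower as measured (limma adjusted p = 1.90e-05), with an ESlncRNA signal that was not well above background. Under median centring 6 of the 9 rose and 2 fell.

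All 17 genes of mitochondrial phospholipid transfer were measured, of which 7 rose and 5 fell (median 0.11). Prelid2, of the family of Prelid3a, rose by 0.88 ± 0.028 (limma adjusted p = 1.32e-05), and Prelid3b, its closest relative, by 0.42 ± 0.094 (limma adjusted p = 0.000763). Triap1, the small partner of the PRELI carriers, named here for that role, was at -0.01 ± 0.023 and did not pass. Pisd, which makes phosphatidylethanolamine, fell to -0.65 ± 0.017 (limma adjusted p = 5.13e-05), and Pgs1, of the cardiolipin pathway, to -0.46 ± 0.069 (limma adjusted p = 0.000375). Pgs1 turned to 0.28 and Pisd lost its call (-0.07, limma adjusted p = 0.469) with median centring, under which 16 of the 17 rose and 0 fell.

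Of 21 long noncoding RNAs with names of their own, 6 were higher and 8 lower (median -0.07), close to the 26.3% higher and 36.8% lower of all genes. Peg13 (-2.29 ± 0.0086, limma adjusted p = 1.79e-07), Meg3 (-1.57 ± 0.065, limma adjusted p = 1.10e-06) and H19 (-1.45 ± 0.023, limma adjusted p = 1.20e-06) fell. The highest of the 21, Airn, rose by 0.94 ± 0.065 (limma adjusted p = 1.21e-05), against 2.03 for Redrum, which was selected for its ratio.

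**Figure D4:**
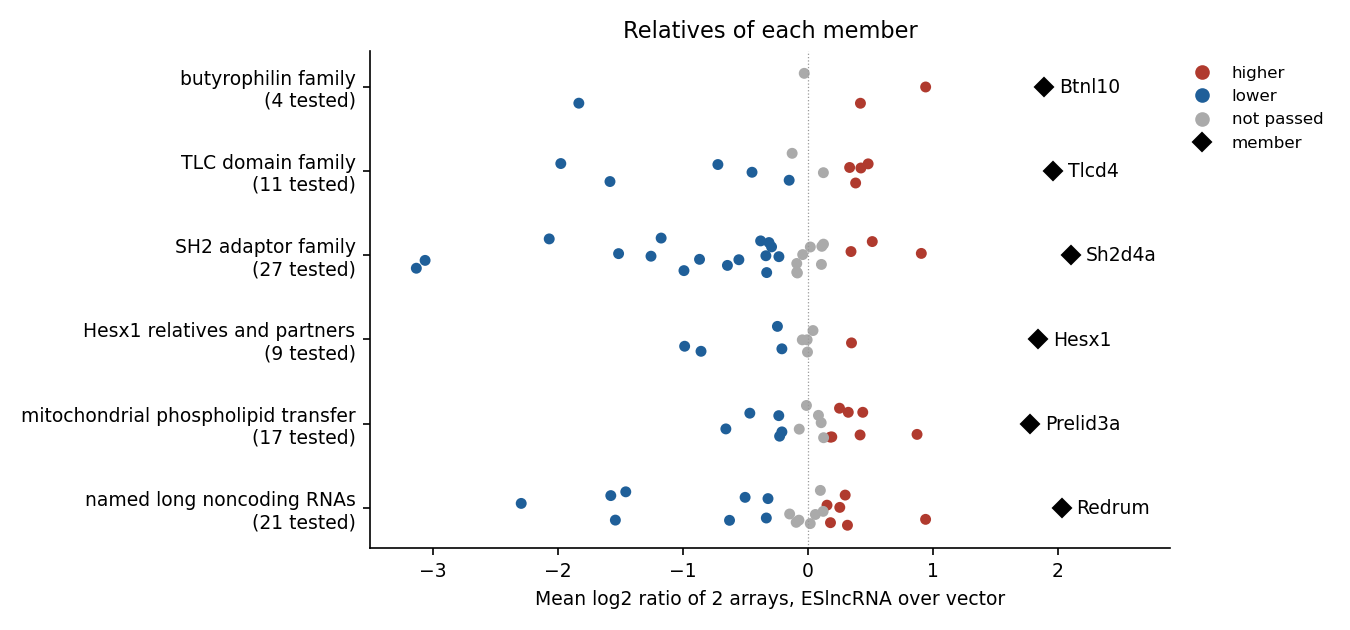
Mean log2 ratio of ESlncRNA over vector (2 arrays) for each measured relative, 1 row per list with vertical scatter for legibility, in red where limma called it higher, blue lower and grey not passed, and the related gene of the 6 as a black diamond. No relative lies above 0.94, and the diamonds, genes selected for their high ratios, lie between 1.78 and 2.11.

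The measured genes nearest to each gene on its chromosome were compared as well, 5 on either side, 60 in all and up to 4298 kb away. The repeat-bearing probe described as Btnl10 is counted among them. Some are listed only by a transcript or locus ID close to a named neighbour, so the 60 may not all be separate genes. Of the 60, 21 were higher, 18 lower and 21 did not pass, with a median of 0.02. That is 35% higher and 30% lower, against 26.3% and 36.8% of all genes, and with median centring 38 were higher and 10 lower. They ranged from -2.98 (Tubb6, near Prelid3a) to 0.87 (H2bu2, near Btnl10), a pair named after their values were seen. The highest neighbour lay below the lowest of the 6 genes, which says little because the 6 were selected for their high ratios.

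Redrum lay in a sparse stretch. Its nearest measured probes were those of Gm8594, 422 kb away (0.13 ± 0.11, not passed), and Zfp608, a zinc finger gene, 435 kb away on the other side (-1.09 ± 0.021, limma adjusted p = 4.49e-06). Of its 10 neighbours limma called 0 higher and 5 lower. At an unadjusted p under 0.05, too, 0 were higher, and with median centring 6 were called higher and 3 lower. Tlcd4 lay between Gm5710, 21.8 kb away (-0.42 ± 0.039, limma adjusted p = 0.000446), and Alg14, an enzyme of N-glycosylation, 159 kb away (0.17 ± 0.0026, limma adjusted p = 0.0188). The call of Alg14 was lost with a normexp offset of 0 (limma adjusted p = 0.0671), without background subtraction (0.0603), in the authors' deposited values (0.0588) and without the replicate block (0.0761). Gm5710 turned to 0.36 with median centring.

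Btnl10 had close neighbours, of which the nearest is the repeat-bearing probe described above. On the other side Rnf187, a ubiquitin ligase gene 5.53 kb away, was at 0.17 ± 0.049 (limma adjusted p = 0.0232), a call lost under the same alternatives (limma adjusted p from 0.0504 to 0.0903). Sh2d4a lay 9.62 kb from Csgalnact1, an enzyme of chondroitin synthesis, which was at -0.32 ± 0.14 (limma adjusted p = 0.00438). The call of Csgalnact1 was lost with median centring (-0.11, limma adjusted p = 0.244), the processed signals (0.149) and the authors' deposited values (0.0632). On the other side Psd3, 658 kb away, fell to -1.10 ± 0.025 (limma adjusted p = 4.38e-06).

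Hesx1 lay 82.6 kb from Appl1, an endosomal adaptor, which fell to -1.01 ± 0.077 (limma adjusted p = 9.98e-06), and 209 kb from Gm7591 (0.07 ± 0.070, not passed). Of the 10 neighbours of Prelid3a 6 rose and 3 fell, against 26.3% higher and 36.8% lower over all genes. Those that rose include Psmg2 and LOC638800, whose probes adjoin on the same strand and may not stand for separate genes. Afg3l2, a mitochondrial protease subunit 75.8 kb away, rose by 0.50 ± 0.042 (limma adjusted p = 0.000199), and Spire1, an actin nucleator 7.79 kb away on the other side, by 0.75 ± 0.046 (limma adjusted p = 3.06e-05).

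**Figure D5:**
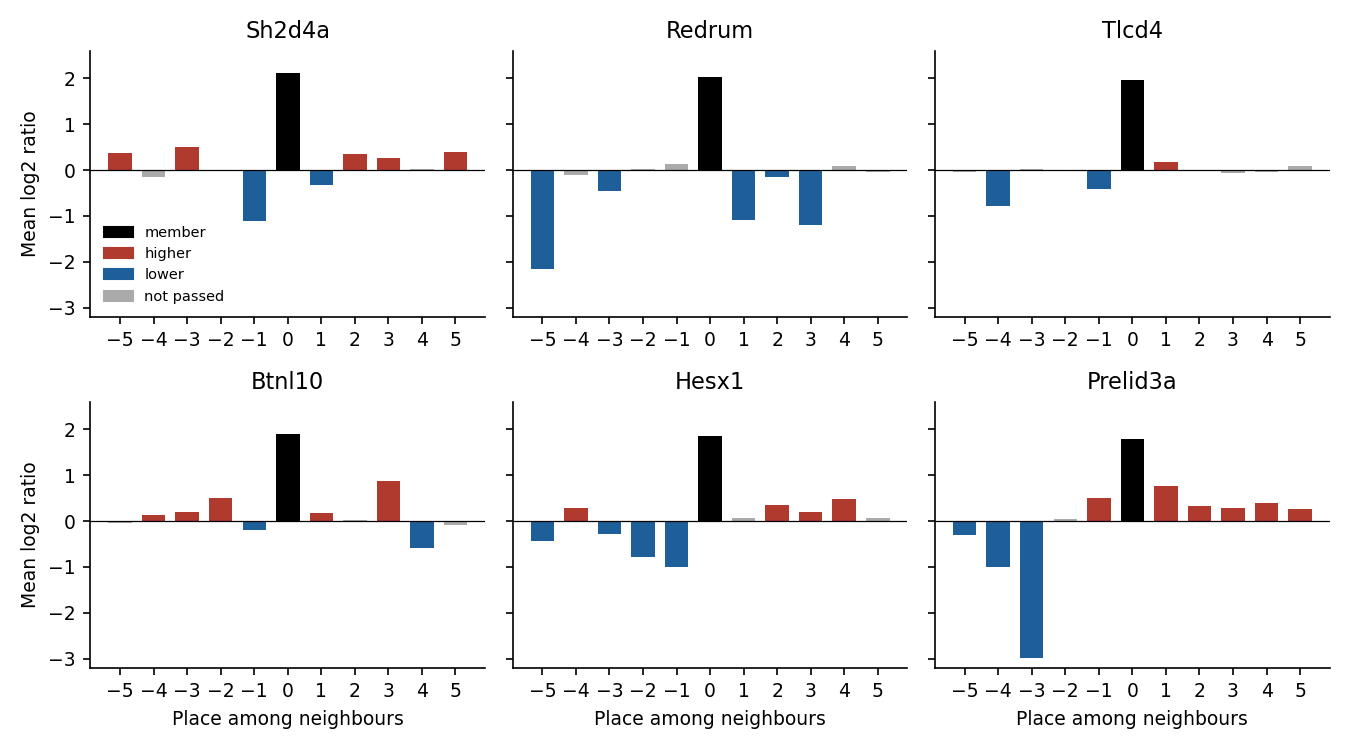
Mean log2 ratio (2 arrays) of the 5 nearest measured genes on either side of each of the 6 genes, by place along the chromosome, with the gene itself in black and neighbours in red (higher), blue (lower) or grey (not passed). The black bars stand between 1.78 and 2.11, and the highest neighbour, 0.87, is in the Btnl10 panel.

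Markers of other blood and liver cells moved on the same arrays. Of 32 erythroid markers measured, 23 rose, 5 fell and 4 did not pass (median 0.69), against 26.3% higher and 36.8% lower over all genes. Among those that did not pass, the arrays disagreed on Slc4a1 (-0.45 and 1.48) and Alas2 (-0.02 and 0.77). The highest marker, Trim10, was at 1.32, below each of the 6 genes, which were selected for their high ratios. With median centring 27 rose and 0 fell (median 1.37, against 0.34 over all genes), and the highest erythroid marker, at 2.15, stood above Hesx1, at 2.11. The summed erythroid signal, normalized across channels, was 765101 and 661028 with vector and 1147710 and 1031840 with ESlncRNA. With loess all 16 granulocyte markers fell (median -4.49), with summed signals of 1241350 and 1378520 with vector and 71822 and 85540 with ESlncRNA, and all stayed well above background in both channels. With loess all 13 macrophage markers and all 15 megakaryocyte markers measured fell too. So did all 12 mast cell, basophil and eosinophil markers measured. Falls were also called for 11 of 13 hepatocyte, 14 of 15 endothelial and stromal, and 11 of 12 progenitor markers. Of 6 lymphocyte markers 3 fell and 2 rose. With median centring 15 granulocyte markers fell and 1 rose, and 13 megakaryocyte markers fell and 2 rose. Of the mast cell, basophil and eosinophil markers 11 then fell. With the processed signals 15 granulocyte, 12 macrophage and 12 megakaryocyte markers fell. In bulk RNA a change in the share of a cell type cannot be told apart from a change per cell. The part that these shifts had in the ratios of Redrum, Tlcd4, Btnl10, Sh2d4a, Hesx1 and Prelid3a, and in the falls among the SH2 adaptors, was not tested.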

How the data were processed

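The members and gene lists were chosen with earlier results of these data known. Feature Extraction 10.1.1.1 quantified the scans and mm9 gave the positions, both per the file headers. The authors' deposited intensities used were each spot's mean signal and median local background, before any correction. As an alternative, the deposited processed intensities were used, which Feature Extraction had corrected for background and dye, per the file headers. The sign of the ratios was checked against deposited log10 values of Cy5 over Cy3. The authors' deposited log2 values came from limma per the submitters' processing notes, where no version stands. They correlated at r = 0.999958 and 0.999959 with loess ratios made here without background subtraction, which gave their scale and direction. Their medians were -0.02 and -0.01.

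Here normexp (offset 50) and loess were applied in R 4.3.3 with limma 3.58.1, with control and marked spots (284 and 308 of 59305) at weight 0. Saturated spots numbered 0. A probe was kept where each array had 1 or both channels well above background, which left 26789 of 55681, and the brightest stood for its gene. A linear model over all probes kept gave Benjamini-Hochberg adjusted p-values, threshold 0.05, with 1 residual and 5.27 prior degrees of freedom. Each alternative treatment was fitted anew with its own prior. Bounds written "at least" set the brighter channel against the dimmer signal or the lowest signal well above background, whichever was higher. Where the dimmer signal was the higher, the bound is the measured ratio itself. Such bounds are open to dye bias. Only the linear model and the adjustment were tested on simulated log2 ratios, with few probes changed. The background correction, loess, filter and choice of probe were not. Of 50 probes changed by 0.25 on the log2 scale 8% were recovered, of 50 changed by 0.5 98%, and of those changed by 1 or 2 100%. False calls among the unchanged probes numbered 16. Genes named were the 6 members, the ESlncRNA interval, the 2 genes next below, the 3 smallest p in each list and same-subfamily genes, nearest neighbours and nearest patterns, and up to 3 markers a list. The arrays shared a slide and a scan, so no batch could be tested. An array holds both channels of its replicate, so the ratios are paired by construction.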

Additional observations from a re-analysis of the deposited data

How the results depend on the processing

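By the probes selected, the direction of all 6 members held under every alternative run. The 6 were selected for high ratios on these same arrays, so neither this nor the values below are separate support. Their median log2 ratio was 1.93, and it was 2.33 with median centring, 2.47 with the processed signals, 2.18 with a normexp offset of 0, 2.08 without background subtraction and 2.08 in the authors' deposited table. With 1 array left out in turn it was 1.94 both times. Prelid3a was at 1.63 when its pair of probes was averaged. Over all genes 5223 were higher and 7305 lower in limma, against 12511 and 3633 with median centring. Each alternative was fitted with its own prior, and p-values with median centring were far smaller for large ratios. The counts of the 2 fits are therefore not equally strict. With the processed signals 4707 were lower. Without the replicate block, which treats the channels of an array as unpaired, 3446 were higher. Of all calls 41.7% were higher, a share that was 77.5% after median centring and 59.2% for the processed signals. Relatives numbered 55 higher and 23 lower with median centring, and neighbours 38 and 10. Pgs1 (0.28), Gm5710 (0.36) and ENSMUST00000069941 (0.31) reversed with median centring. The cause of these moves was not tested. Vector signals near background limit Hesx1 and Sh2d4a.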

Other observations

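RefSeq gives a second start for Tlcd4 and for Btnl10, downstream of the first. The 250 bases before the second Tlcd4 start held 2 KLF matches, 229 to 222 and 44 to 37 bases upstream of it, the first of which is the match seen before the upstream start. The window before the second Btnl10 start held 1 AGATAA match, 163 to 158 bases upstream, which is the match that lies 14 to 9 bases before the first start, and 2 E-boxes.

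The brighter Prelid3a probe stood above the second under each treatment of the signals for which both were computed, at 2.17 against 1.81 with median centring and at 2.27 against 2.15 with the processed signals. Within 100 kb of the Redrum probe the array held 1 other probe, that of 4933434P08Rik at 41.9 kb on the opposite strand. It was not well above background and gave log2 ratios of 0.02 and 0.04.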
